A study of Mus musculus with 12 samples.

Results

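The 10 genes described here are Trp53, which encodes the transcription factor p53, 8 genes that p53 or related stress signals are known to switch on (Cdkn1a, Mdm2, Ccng1, Gdf15, Btg2, Phlda3, Gadd45a and Gadd45b), and Ccnd1, which encodes the G1 cyclin D1. They were chosen by their symbols among the 23420 genes of the count table. All 10 have a row in it, and 9 of them were among the 11664 genes with enough counts to be tested. RNA was sequenced from 12 kidneys of adult male C57BL/6J mice, and the labels do not tie kidneys to single mice. The 4 control kidneys were taken at nephrectomy, and 8 kidneys had their renal pedicle clamped for 20 min and were taken after 24 h of reperfusion. The 8 ischemic kidneys form a pair of sets of 4, and their labels contradict each other. Set A is titled anaesthetised but grouped as conscious, and set B is titled conscious but grouped as anaesthetised. The sets are therefore named neutrally, and no direction is given to anaesthesia. The treatment text of the labels gives the ischemia for the control kidneys too, and the labels name no batch.

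In a cell whose DNA is damaged or whose metabolism is stressed, p53 is stabilised as a protein and raises the transcription of its target genes. Its target Cdkn1a encodes p21, which blocks the cyclin-dependent kinases that carry a cell from G1 into S phase, and its target Mdm2 encodes the ligase that returns p53 to a low level. Tubular epithelium that re-enters the cell cycle after ischemia is known to pass, or to stop at, these checkpoints. The counts measure messenger RNA in whole tissue, and neither p53 protein nor the position of cells in the cycle was measured.

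Total counts lay between 15367342 and 44793350 per kidney. On the first principal component of all tested genes, which took 26.5% of the variance, every control kidney was apart from every ischemic kidney. On the second, which took 12.2%, set B replicate 4 was apart from the others. The summed level of 6 proximal tubule markers was 6550 to 7310 CPM (counts scaled to library size) in the controls, 689 to 1270 for set A and 400 to 1310 for set B. The summed level of 5 markers of injured tubule rose from 16.2 to 22.6 CPM in the controls to 518 to 825 for set A and 588 to 981 for set B. The libraries thus carried the tissue and the injury of their labels. Many genes had 0 counts in 1 kidney beside at least 20 counts in another of its group, which held for 15.7% of tested genes in the controls, 18% for set A and 20.2% for set B. In bulk RNA, fewer cells of a type and less RNA per cell cannot be told apart.

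The promoters of 3 members that passed the test after ischemia, and that of Ccng1, which did not, are printed because they hold the motifs described next. They are RefSeq sequences of GRCm38.p6 running from 250 bases before to 50 bases after the start of transcription, 5′ to 3′ on the strand of the gene. Capitals mark matches to the p53 decamer, the unit of which a p53 binding site holds a pair, or, in Btg2, the cyclic AMP response element TGACGTCA.
Gadd45a, chr6:67037358-67037657, minus strand: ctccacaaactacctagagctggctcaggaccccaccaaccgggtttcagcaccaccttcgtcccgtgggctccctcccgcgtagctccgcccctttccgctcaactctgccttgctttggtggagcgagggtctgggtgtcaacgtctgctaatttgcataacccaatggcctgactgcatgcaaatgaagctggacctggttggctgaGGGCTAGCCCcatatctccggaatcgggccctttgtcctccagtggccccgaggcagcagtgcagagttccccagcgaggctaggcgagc
Btg2, chr1:134079106-134079405, minus strand: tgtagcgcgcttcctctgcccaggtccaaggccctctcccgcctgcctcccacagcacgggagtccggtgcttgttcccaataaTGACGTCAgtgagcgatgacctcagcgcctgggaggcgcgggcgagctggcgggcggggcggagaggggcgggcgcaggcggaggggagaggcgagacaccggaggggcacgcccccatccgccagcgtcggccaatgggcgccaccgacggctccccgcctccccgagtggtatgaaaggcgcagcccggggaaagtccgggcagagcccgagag
Cdkn1a, promoter 1, chr17:29090729-29091028, plus strand: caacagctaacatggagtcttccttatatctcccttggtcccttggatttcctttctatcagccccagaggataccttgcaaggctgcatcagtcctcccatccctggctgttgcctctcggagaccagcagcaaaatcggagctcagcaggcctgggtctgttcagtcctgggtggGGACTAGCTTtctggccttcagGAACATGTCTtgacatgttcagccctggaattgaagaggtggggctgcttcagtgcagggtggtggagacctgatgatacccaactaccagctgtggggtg
Ccng1, chr11:40755237-40755536, minus strand: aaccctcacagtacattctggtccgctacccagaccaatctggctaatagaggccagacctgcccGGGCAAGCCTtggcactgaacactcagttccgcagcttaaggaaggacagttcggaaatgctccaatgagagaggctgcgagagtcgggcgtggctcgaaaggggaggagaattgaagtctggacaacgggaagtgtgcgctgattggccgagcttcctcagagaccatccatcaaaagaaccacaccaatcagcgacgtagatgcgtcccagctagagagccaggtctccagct
The decamer was matched on both strands, and since its pattern is its own reverse complement, a match on both is 1 site. It lay at position -40 from the start in Gadd45a, at -73 and -51 in Cdkn1a and at -185 in Ccng1. It was also present in the promoters of Mdm2, at -186, and Trp53, at -75. In all, 5 of the 9 members with a promoter in the table held it, in 5 of their 11 promoters. A second promoter of Cdkn1a in the table did not. Of all 32851 promoters of that length, 8.36% held it. Most members were chosen as genes known to answer p53 or related stress signals, so their share is not independent of that choice.

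Btg2 held no decamer in this window and held the response element at -166, a motif present in 1.79% of all promoters. The AP-1 motif (TGACTCA or TGAGTCA), whose letters do not occur within the response element, was in 0 of 11 member promoters and in 5.2% of all. The GC box GGGCGG was in 6 of the 11 and in 35.7% of all, the CCAAT box in 7 and in 37.4%, and the TATA box TATAAA in 2 and in 13.6%, each searched on both strands. Median GC content over all promoters was 52.7%, against 72.0% in Btg2, 61.0% in Gadd45a, 55.7% in Ccng1 and 54.7% in promoter 1 of Cdkn1a. A match describes the letters and is not a measurement of binding.

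Gadd45a and Btg2 rose in both sets of ischemic kidneys. Cdkn1a was read from no control kidney and from 5 of the 8 ischemic ones, and the other tested members did not pass the test. In set A against control, 2 of the 9 members tested were higher at an adjusted p below 0.05 and 0 were lower, while 22.3% of all genes tested passed, 10.5% higher and 11.7% lower. In set B against control, 3 members were higher and 0 lower, with 22.8% of all genes passing, 10.9% higher and 11.9% lower. The member called there beside Gadd45a and Btg2 was Cdkn1a, which entered the test only through ischemic kidneys. That call is therefore not independent of the filter, and its further limits are given below. With both sets in one contrast against control, the same 3 members were higher and 0 lower, with 26.4% of all genes passing, 12.2% higher and 14.2% lower. The share of members that passed for set A was thus near that of all genes. The median log2 fold change of the tested members was 1.41 for set A and 1.10 for set B, and over all genes tested it was -0.02 in each. These adjusted p-values come from the quasi-likelihood test of edgeR, adjusted by Benjamini-Hochberg over all genes tested, and measure the spread between these kidneys. Both comparisons use the same 4 control kidneys and are not independent of each other.

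**Figure D1:**
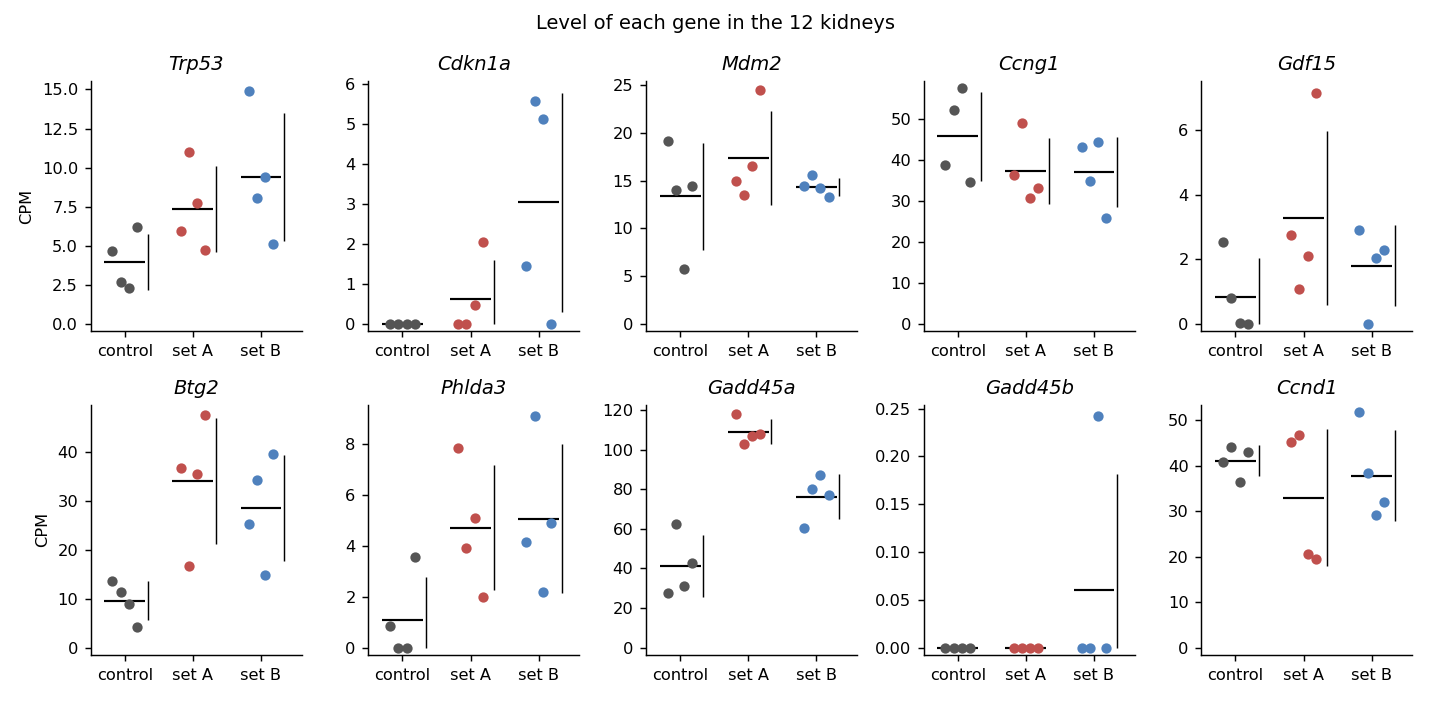
Level of each of the 10 genes in CPM (vertical axes, linear, each from 0) in the 4 control kidneys, the 4 of set A and the 4 of set B. Each point is a kidney, the horizontal line is the mean and the vertical line runs 1 SD each way, ending at 0 where it would pass below it. All 8 ischemic kidneys lie above every control for Btg2 and 7 do for Gadd45a, while Cdkn1a and Gadd45b are at 0 in every control.

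Trp53 lies on chromosome 11 from 69580359 to 69591873 of mm10, on the plus strand. Its message stood at 4.65, 2.65, 2.32 and 6.19 CPM in the controls, at 5.97, 11, 7.73 and 4.70 CPM in set A and at 14.9, 8.04, 9.43 and 5.14 CPM in set B. The kidneys with the highest levels were in set B and set A, but both sets overlapped the controls, and 5 of the 8 ischemic kidneys lay above every control. The log2 fold change was 0.90 (SE 0.53, edgeR adjusted p = 0.278) in set A and 1.25 (SE 0.53, adjusted p = 0.107) in set B. With both sets together it was 1.07 (SE 0.48), with an unadjusted p of 0.0373 and an adjusted p of 0.111, and 2 SE each way spanned 0.11 to 2.03. The call depended on the test, since in DESeq2 the adjusted p was 0.0491 for set B and 0.0467 for both sets.

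Mdm2, the ubiquitin ligase that degrades p53 and is itself a p53 target, lies on chromosome 10 from 117688875 to 117710758. It was measured at 19.2, 14, 5.79 and 14.4 CPM in the controls, at 15, 13.5, 16.5 and 24.5 CPM in set A and at 14.4, 15.6, 14.2 and 13.3 CPM in set B. Set B lay within the range of the controls in all 4 kidneys, and 1 kidney of set A was above it. Its log2 fold change was 0.38 (SE 0.36, edgeR adjusted p = 0.56) in set A and 0.11 (SE 0.36, adjusted p = 0.904) in set B. For both sets together 2 SE each way spanned -0.38 to 0.87 around 0.24. The direction rested on control replicate 3, the lowest of the 12 kidneys, and without it the value for both sets was -0.02.

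Of the 16 tested genes that regulate or resemble p53, 0 passed the test in edgeR in any of the comparisons with control. At an unadjusted p below 0.05 the count was 0 in set A, 1 in set B and 0 for both sets together, where 31.5%, 32.7% and 35.9% of all genes tested had one. DESeq2 and limma-trend called 0 of the 16. Mdm4, the relative of Mdm2 that holds p53 inactive, stood at 9.43 CPM in the controls, 13.0 for set A and 13.4 for set B (log2 fold change 0.48 for both sets, edgeR adjusted p = 0.511). The damage kinase gene Atm stood at 7.79, 6.49 and 10 CPM (0.05, adjusted p = 0.957). Cdkn2a, which encodes the Mdm2 inhibitor ARF in mice as well as p16, was at 0 in all group means. The median log2 fold change of the 16 genes was 0.15 for both sets together, against -0.03 over all genes.

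Cdkn1a lies on chromosome 17 from 29090976 to 29100727, on the plus strand. It had 0 counts in each of the 4 controls, 0, 0, 21 and 34 counts in set A and 43, 88, 106 and 0 counts in set B. On the CPM scale the ischemic kidneys held 0, 0, 0.463 and 2.05 in set A and 1.45, 5.57, 5.13 and 0 in set B. The kidneys with counts were 2 of set A and 3 of set B, and the other 3 ischemic kidneys did not differ from the controls, at 0. A count of 0 allows up to 3 counts in a library, which were worth 0.078 to 0.144 CPM in the controls, 0.104 CPM on average. These limits cover counting error only, since the reads carried no molecular identifiers. The annotation release and strand setting of the counting are not given in the sources used here, and whether the zeros come from the counting was not tested, so the bounds that follow hold only if they do not.

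Set against that average floor, the mean Cdkn1a level of set A was at least 6.04-fold higher and that of set B at least 29.2-fold higher. The bound for set A rested on replicate 4, without which it was 1.48-fold, and for set B it was 21.1-fold to 38.9-fold with a kidney of that set left out. In edgeR the adjusted p was 0.0633 in set A, 0.0262 in set B and 0.0317 for both sets together. The exact permutation test of CPM, two-sided, gave p = 0.429 in set A, 0.143 in set B and 0.141 for both sets. The call was lost in set B, at adjusted p-values of 0.0505 to 0.0641, when control replicate 2, 3 or 4 or set B replicate 2 or 3 was left out. In a fit of set B and the controls alone Cdkn1a had counts in too few kidneys to be tested, so that call was gone as well. For both sets together it was lost without any single control, without set B replicate 2 or 3, with the replicate block (adjusted p = 0.0715) and in limma-trend (adjusted p = 0.0875). In set A it passed without set A replicate 1 or 2, without set B replicate 4 (adjusted p = 0.0341), without the filter on low counts and in DESeq2 (adjusted p = 0.0175). A gene annotated on the opposite strand, AC167363.2, overlaps Cdkn1a, and since the strand setting of the counting is not given, reads of the pair cannot be told apart.

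Ccnd1 encodes the cyclin that activates CDK4 and CDK6 in G1, and lies on chromosome 7 from 144929931 to 144939925. It stood at 40.8, 44.1, 36.4 and 43.0 CPM in the controls, at 45.1, 46.8, 20.6 and 19.4 CPM in set A and at 51.7, 38.3, 29.2 and 31.9 CPM in set B. The controls were close together, with an SD of 3.40 CPM, and the ischemic kidneys spread to both sides of them, with SDs of 15 CPM for set A and 10 CPM for set B. Of the 8 ischemic kidneys, 3 were above every control and 4 were below every control. In log2 terms the change was -0.32 (SE 0.28, edgeR adjusted p = 0.536) in set A and -0.12 (SE 0.28, adjusted p = 0.858) in set B. Within set A, replicates 1 and 2 held 45.1 and 46.8 CPM of Ccnd1 and no counts of Cdkn1a, and replicates 3 and 4 held 20.6 and 19.4 CPM of Ccnd1 and 21 and 34 counts of Cdkn1a. That order did not hold in set B, where replicate 1 had the highest Ccnd1 of the 12 kidneys and 43 counts of Cdkn1a, and replicate 4 had 31.9 CPM and 0 counts. LTO1 overlaps Ccnd1 on the opposite strand, with the same limit on the counting.

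Around these members, the G1 cyclins, their kinases and inhibitors and the RB-E2F pathway were read from 24 further genes, of which 19 were tested. For both sets together 7 were higher and 1 lower, beside 12.2% and 14.2% of all genes tested. The median log2 fold change was 0.52 for that contrast, 0.05 for set A and 0.49 for set B. Myc, a driver of G1 entry that acts upstream of the D cyclins, rose from a control level of 4.97 ± 1.91 CPM (SD, n = 4) to 58.2 ± 7.35 for set A and 50.2 ± 10.1 for set B. E2f1, an activator of S phase genes, rose from 1.0 ± 0.315 CPM to 4.48 ± 1.13 and 5.10 ± 0.252, and E2f4 rose from 32.1 ± 6.94 to 93.8 ± 8.24 and 83.7 ± 23.7. Rbl2, which encodes the pocket protein p130 of quiescent cells, fell from 58.5 ± 4.83 CPM to 29.8 ± 11 and 33.4 ± 11. Their adjusted p-values in edgeR for both sets together were 7.7e-09, 0.022, 1.16e-05 and 0.00739, in that order. The other 4 genes called higher in that contrast were Cdk2, Cdk4, Cdk6 and E2f3. Cdk6 did not pass for set B alone (adjusted p = 0.0892), nor E2f3 for set A alone (0.0726). Cdk2 and Cdk4 rose in both, from 30.9 and 56.1 CPM in the controls to 63.8 and 109 in set A and 69.5 and 106 in set B.

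The other inhibitors of the G1 kinases did not pass the test or had enough counts in too few kidneys to be tested. Cdkn1b, which encodes p27, stood at 13.4 CPM in the controls, 12.3 for set A and 9.29 for set B (log2 fold change -0.33 for both sets, edgeR adjusted p = 0.555). Cdkn1c, which encodes p57, stood at 6.25, 4.04 and 3.63 CPM (-0.71, adjusted p = 0.456), and Cdkn2c at 13.2, 7.45 and 7.37 CPM (-0.83, adjusted p = 0.196). Cdkn2b and Cdkn2d were not tested. They had no counts in the controls or in set B, and in set A they reached 86 and 71 counts in the highest kidney. Cyclins D2 and D3 were likewise not called, with Ccnd2 at 3.08, 1.29 and 2.85 CPM (adjusted p = 0.772) and Ccnd3 at 43.8, 31.0 and 36.0 CPM (adjusted p = 0.104).

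Of 20 genes used in S, G2 and M phase, 13 were tested, and 6 were higher and 0 lower for both sets together, beside 12.2% and 14.2% of all genes tested, with a median log2 fold change of 2.14. Cdk1, the mitotic kinase, had 0 counts in the controls and 1.81 ± 1.48 CPM (SD, n = 4) in set A and 0.869 ± 1.46 in set B (edgeR adjusted p = 0.0322 for both sets). Its kidneys ran from 0.413 to 3.37 CPM in set A and from 0 to 3.04 CPM in set B. Having no counts in the controls, Cdk1 entered the test only through ischemic kidneys, so its call among the 6 is not independent of the filter. The replication helicase genes Mcm3 and Mcm4 rose from 4.51 ± 2.30 and 29.6 ± 6.13 CPM to 21.2 ± 12.8 and 94.3 ± 25.4 in set A and 25.0 ± 14.7 and 111 ± 28.9 in set B. Mcm2 and Top2a also rose in both sets, and Plk1 passed for set B (adjusted p = 0.0103) and for both sets together but not for set A (0.112). Among the genes that did not pass for both sets together were Mcm5, Mcm6 and Mcm7 (edgeR adjusted p = 0.078, 0.127 and 0.0658). Pcna did not pass either, with a log2 fold change of -0.01 (adjusted p = 0.996). Several genes of the same phases stayed at few counts, with Mki67, the proliferation marker, at 0.137 CPM in the controls, 0.0661 for set A and 0.714 for set B, and Ccnb1, the mitotic cyclin, at 0.401, 0 and 0.

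Gadd45a encodes a small stress protein that binds PCNA and the CDK1 complex and lies on chromosome 6 from 67035096 to 67037457. It stood at 27.5, 62.3, 31.2 and 42.9 CPM in the controls, at 118, 103, 107 and 108 CPM in set A and at 60.4, 80.2, 87.2 and 77.0 CPM in set B. All of set A lay above all controls, and 3 kidneys of set B did. The lowest kidney of set B, replicate 1, lay just under control replicate 2, the highest control. The means were 41.0 ± 15.6 CPM (SD, n = 4) in the controls, 109 ± 6.21 for set A and 76.2 ± 11.4 for set B. The log2 fold change was 1.41 (SE 0.22, edgeR adjusted p = 6.69e-05) in set A and 0.89 (SE 0.22, adjusted p = 0.00456) in set B, or 2.66-fold and 1.86-fold. The exact permutation test gave p = 0.0286 in set A, the smallest that 4 kidneys against 4 allow, and 0.0571 in set B. The count table also holds E230016M11Rik, which overlaps Gadd45a on the opposite strand and had 11 counts over all 12 kidneys.

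Gadd45a was also the only member whose sets of ischemic kidneys did not overlap, with all of set A above all of set B. Set B stood lower than set A by a log2 fold change of -0.52 (SE 0.22), and 2 SE each way spanned -0.95 to -0.09. The unadjusted p was 0.0262 and the edgeR adjusted p was 0.941, so the difference did not pass the test. In this comparison 0 of the 9 members passed, 1 had an unadjusted p below 0.05, and DESeq2 and limma-trend called 0. Over all genes tested 0.00857% passed, 5.03% had an unadjusted p below 0.05, and 1.32% lay without overlap in the same direction. Cdkn1a, with the widest gap between the sets, had 2.28 (SE 2.13, adjusted p = 1.0), and 2 SE each way spanned -1.98 to 6.53. The value was 4.24 without set A replicate 4 and 4.21 with the replicate block.

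Gadd45b, the relative of Gadd45a that answers cytokines and growth signals more than p53, lies on chromosome 10 from 80930073 to 80932204. It had 5 counts in set B replicate 3, 0.242 CPM, and 0 counts in the other 11 kidneys, and it was not tested. Gadd45g, the remaining gene of the family, stood at 9.59 CPM in the controls, 6.46 for set A and 4.85 for set B (log2 fold change -0.78 for both sets, edgeR adjusted p = 0.463). Of the 3 genes of the family, Gadd45a was thus the 1 that passed.

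Btg2 encodes an antiproliferative protein that recruits the deadenylase complex to messages, and it lies on chromosome 1 from 134075170 to 134079120. It stood at 13.6, 11.3, 8.99 and 4.26 CPM in the controls, at 36.7, 16.6, 35.4 and 47.4 CPM in set A and at 25.3, 34.2, 14.9 and 39.5 CPM in set B. Every ischemic kidney was above every control, the lowest being set B replicate 3 at 14.9 CPM against 13.6 in control replicate 1. Among all genes tested, 12.6% lay above the controls without overlap in set A, 11.6% in set B and 8.43% in both sets together. Its log2 fold change was 1.84 (SE 0.39, edgeR adjusted p = 0.00145) in set A and 1.58 (SE 0.39, adjusted p = 0.00482) in set B, or 3.57-fold and 2.99-fold. The exact permutation p was 0.0286 in each set and 0.00404 for both, the smallest each design allows. Without set B replicate 4, the library that stood apart, the value for set B was 1.38 (adjusted p = 0.0139).

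The relatives of these families moved both ways. Of 9 tested relatives, 2 were higher and 2 lower for both sets together, beside 12.2% and 14.2% of all genes tested. Btg1, the closest relative of Btg2, rose from 138 ± 3.61 CPM (SD, n = 4) to 294 ± 36.0 for set A and 257 ± 23.0 for set B (edgeR adjusted p = 8.46e-07 for both sets). Tob1, an antiproliferative gene of the same family, fell from 298 ± 63.4 CPM to 108 ± 34 and 92.1 ± 13.2 (adjusted p = 2.99e-07). Phlda1, a relative of Phlda3, rose from 4.82 ± 1.67 CPM to 23.0 ± 7.67 and 21.0 ± 7.43 (adjusted p = 8.28e-05). Gdf11, a secreted factor of the superfamily of Gdf15, fell from 13.9 ± 2.76 CPM to 8.38 ± 1.07 and 6.27 ± 2.04 (adjusted p = 0.0426), which passed for set B alone (0.045) but not for set A alone (0.226).

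Ccng1 encodes cyclin G1, which recruits a phosphatase to Mdm2, and lies on chromosome 11 from 40748552 to 40755311. It stood at 38.9, 52.2, 57.8 and 34.6 CPM in the controls, at 36.3, 49.1, 30.9 and 33.3 CPM in set A and at 43.2, 35, 44.6 and 26 CPM in set B. The ischemic kidneys overlapped the lower part of the control range, with 0 of 8 above every control and 3 below every control. The log2 fold change was -0.29 (SE 0.24, edgeR adjusted p = 0.47) in set A and -0.30 (SE 0.24, adjusted p = 0.446) in set B. With both sets together 2 SE each way spanned -0.70 to 0.11, an interval that holds no rise beyond 0.11 on the log2 scale.

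Phlda3 encodes a protein of one pleckstrin homology domain that restrains Akt, and it lies on chromosome 1 from 135766119 to 135769136. It had 18, 0, 0 and 136 counts in the controls, 248, 92, 231 and 33 counts in set A and 123, 144, 45 and 77 counts in set B. In CPM these were 0.863, 0, 0 and 3.55 in the controls, 7.87, 3.94, 5.09 and 1.99 for set A and 4.14, 9.11, 2.18 and 4.89 for set B. All 8 ischemic kidneys held counts and 6 of them were above every control, but control replicate 4 lay above 1 kidney of each set. The log2 fold change was 2.09 (SE 1.26, edgeR adjusted p = 0.293) in set A and 2.19 (SE 1.27, adjusted p = 0.259) in set B. Without control replicate 4 it was 4.10 for both sets, with an adjusted p of 0.0418, and in limma-trend the adjusted p was 0.0271 in set A, 0.0227 in set B and 0.0084 for both. The gene therefore passed or did not pass by the test and by 1 library.

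Gdf15 encodes a secreted stress cytokine that acts on the brainstem, and it lies on chromosome 8 from 70629393 to 70632456. It had 53, 31, 1 and 0 counts in the controls, 87, 25, 96 and 119 counts in set A and 86, 0, 42 and 36 counts in set B. In CPM these were 2.54, 0.806, 0.0386 and 0 in the controls, 2.76, 1.07, 2.12 and 7.17 for set A and 2.90, 0, 2.03 and 2.29 for set B. The groups overlapped throughout, with 3 of the 8 ischemic kidneys above every control. Its log2 fold change was 1.95 (SE 1.59, edgeR adjusted p = 0.477) in set A and 1.10 (SE 1.55, adjusted p = 0.72) in set B. With single kidneys left out the values ran from 1.21 (without set A replicate 4) to 3.52 (without control replicate 1) in set A, and from 0.66 (without control replicate 4) to 2.65 (without control replicate 1) in set B, and none passed. The interval of 2 SE each way, -1.34 to 4.39 for both sets together, spans a fall and a rise of several fold.

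**Figure D2:**
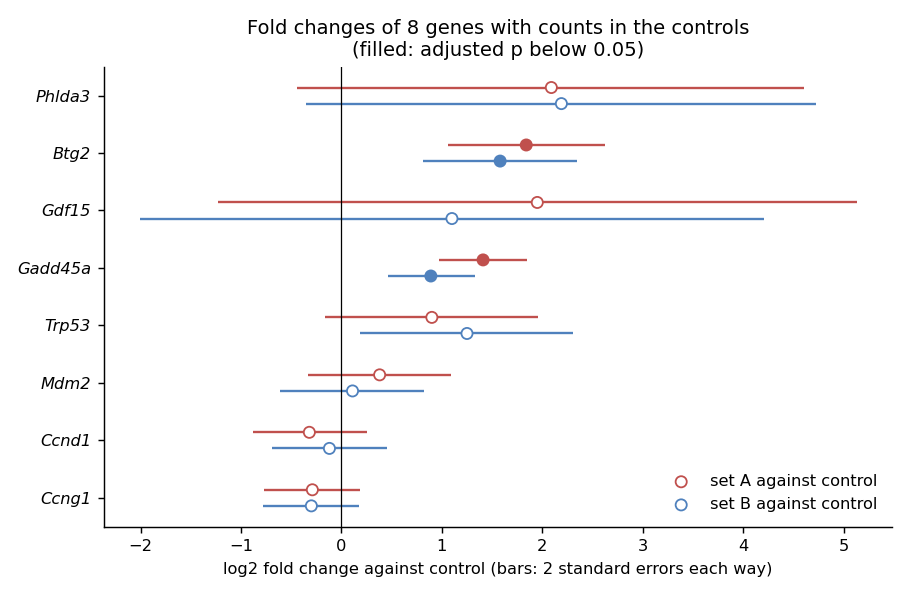
Log2 fold change against control (horizontal axis) of the 8 genes that were tested and had counts in the controls, for set A and set B, with bars of 2 standard errors each way from edgeR. Filled points have an adjusted p below 0.05, and they are those of Gadd45a and Btg2 in both sets. The bars of Gdf15 and Phlda3 are the widest.

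Other targets of p53 gave calls in both directions. Of 32 further targets, 30 were in the table and 25 were tested, and for both sets together 2 were higher and 3 lower, beside 12.2% and 14.2% of all genes tested. A share of 5 in 25 is no higher than the 26.4% of all genes. Their median log2 fold change was 0.21 for both sets together but below 0 in each set alone, at -0.10 for set A and -0.04 for set B. Sfn, which encodes 14-3-3 sigma and holds cells in G2, rose from a control level of 5.11 ± 1.76 CPM (SD, n = 4) to 89.6 ± 19.3 for set A and 53.1 ± 6.39 for set B (edgeR adjusted p = 9.62e-10 for both sets). Plk3, a stress kinase, rose from 24.2 ± 8.43 CPM to 78.0 ± 24.6 and 81.4 ± 6.89 (adjusted p = 9.66e-06). Rrm2b, the p53-inducible subunit of ribonucleotide reductase, fell from 33.0 ± 6.70 CPM to 17.1 ± 4.97 and 16.5 ± 4.08 (adjusted p = 0.00394). Ei24, an endoplasmic reticulum protein gene, fell from 299 ± 29.6 CPM to 188 ± 18.5 and 189 ± 19.4 (adjusted p = 7.94e-05). Steap3, a metal reductase gene, was lower in set B (adjusted p = 0.0198) and for both sets together (0.0324).

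The other 20 tested targets did not pass. Among them, Bax, which promotes apoptosis, stood at 7.02 CPM in the controls, 13.2 for set A and 14.5 for set B (log2 fold change 0.97 for both sets, edgeR adjusted p = 0.104), Bbc3 at 1.83, 3.62 and 1.78 CPM (adjusted p = 0.793) and Apaf1 at 4.54, 7.78 and 11.2 CPM (adjusted p = 0.181). Pmaip1, Fas and Tnfrsf10b had no counts in the controls and were not tested. Sesn1, a regulator of growth signalling, stood at 17.5 CPM in the controls, 7.87 for set A and 9.54 for set B (log2 fold change -1.01, adjusted p = 0.0539).

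Some members are known to answer the stress factors ATF4 and CHOP as well as p53, Gdf15 and Gadd45a among them, and 8 genes of that response were read beside them. All 8 were tested, and 3 were higher and 0 lower in each set, where 10.5% (set A) and 10.9% (set B) of all genes tested were higher. Atf3 rose from 1.19 ± 1.32 CPM (SD, n = 4) to 19.3 ± 5.12 for set A and 35 ± 14.5 for set B, and Asns, the asparagine synthetase gene, from 2.01 ± 1.25 to 16.7 ± 6.28 and 19.0 ± 9.52. Atf4 itself rose from 72.7 ± 4.79 CPM to 186 ± 50 and 178 ± 39.4. Their adjusted p-values in edgeR for both sets together were 0.000183, 8.44e-05 and 4.55e-06. The median log2 fold change of the 8 was 3.81, or 2.88 with the 3 genes at or under the floor in the controls set at their lower bounds. Ddit3, which encodes CHOP, stood at 1.99, 3.38 and 6.20 CPM and did not pass (adjusted p = 0.23). Which factor acted on any member was not tested.

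**Figure D3:**
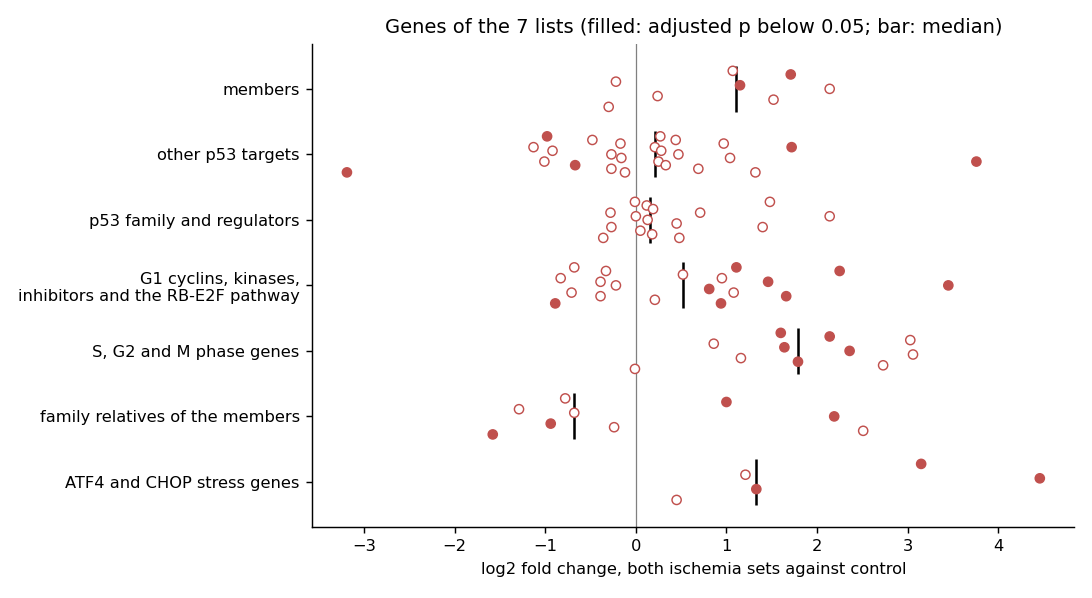
Log2 fold change of both ischemia sets together against control (horizontal axis) for each tested gene of the 7 gene lists (rows), leaving out genes with 3 counts or fewer in every control. Filled points have an adjusted p below 0.05 in edgeR and the vertical bar is the median of the genes drawn. Calls lie on both sides of 0 for the other p53 targets, and no gene of the p53 family and its regulators is filled.

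By level per kilobase of exon, which allows genes to be compared, the members spread over much of the range of the kidney. In the controls the order was Gadd45a at 23.2 CPM per kilobase, Ccng1 at 13.1, Ccnd1 at 8.72, Btg2 at 3.47, Mdm2 at 2.63, Trp53 at 0.977, Phlda3 at 0.708 and Gdf15 at 0.457. Among 11094 genes ranked by this level, Gadd45a stood at percentile 84.8, Btg2 at 54.0 and Gdf15 at 20.3. In the ischemic kidneys Gadd45a was at 52.5 CPM per kilobase (percentile 93.4) and Btg2 at 11.4 (percentile 75.6). Ccng1 stood at 10.6, and its range of 7.39 to 14 lay within that of Btg2, 5.43 to 17.3. Cdkn1a reached 0.516 CPM per kilobase, under Gdf15 at 1.37 and Trp53 at 2.07. Over the 4 controls the ranges of neighbours in this order overlapped, so that their order lies within their spread, except between Ccng1 and Ccnd1 and between Ccnd1 and Btg2.

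**Figure D4:**
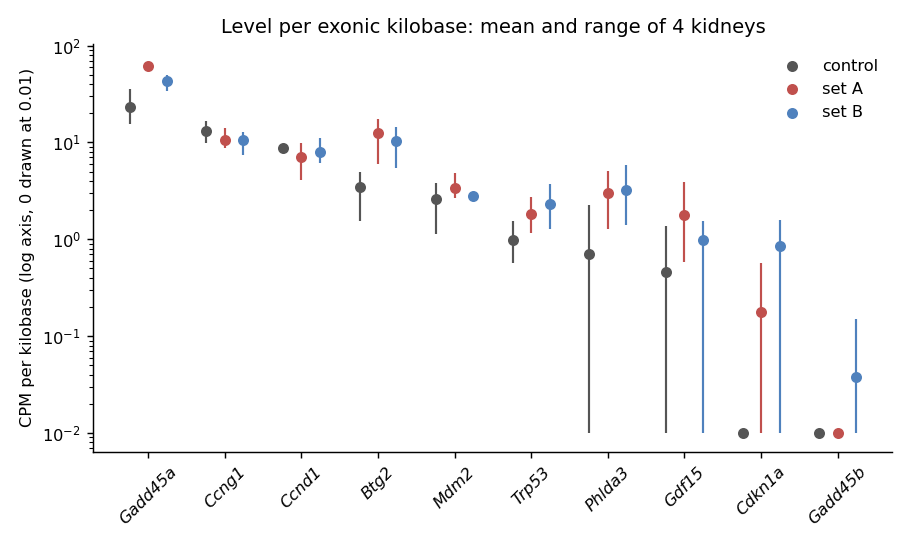
Level of each gene in CPM per exonic kilobase (vertical axis, log scale, with 0 drawn at 0.01) in the controls, set A and set B. Points are means and lines run from the lowest to the highest of 4 kidneys. Gadd45a is highest in all 3 groups, and Cdkn1a and Gadd45b are at 0 in the controls.

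The members did not move as a block from kidney to kidney. Among the 8 ischemic kidneys, set A replicate 4 was the highest for Mdm2, Gdf15 and Btg2 and the lowest for Trp53, Phlda3 and Ccnd1. Set B replicate 2 was the highest for Cdkn1a and Phlda3 and had 0 counts of Gdf15. Set B replicate 1 was the highest for Trp53 and Ccnd1 and the lowest for Gadd45a. No kidney was the highest for more than 3 of the 10 genes.

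The levels of cell type markers moved with ischemia, and their part in the values above was not tested. All 6 proximal tubule markers were lower and all 5 injured tubule markers higher for both sets together. Markers of fibroblasts and pericytes summed to 476 to 612 CPM in the controls, 938 to 2640 for set A and 1130 to 2390 for set B, with 2 of 3 tested genes higher. The 2 thick ascending limb markers parted, with Slc12a1 at 1510 CPM in the controls, 180 for set A and 256 for set B and Umod at 115, 128 and 128. Macrophage and monocyte markers summed to 41.9 to 65.0 CPM in the controls, 8.0 to 20.3 for set A and 8.93 to 24.3 for set B, with 1 of 3 tested genes lower. Most of that sum was Csf1r, at 52.1, 13.5 and 10.5 CPM, while Cd68 stood at 0.837, 0.83 and 3.12. Neutrophil markers reached at most 0.441 CPM in any kidney, with S100a8 and Retnlg at 0 in all 12. T and B cell markers were at 0 in every ischemic kidney, and the hemoglobin genes Hba-a1 and Hba-a2, the 2 of 4 listed that have a row, were at 0 in all 12.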

How the data were processed

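The authors prepared stranded mRNA libraries, sequenced single reads, checked them with FastQC, aligned them with STAR to mm10 and made gene counts with HTSeq. The deposited values are raw counts per gene, not normalized. Versions and the strand setting of the counting are not given in the sources used here. Genes were filtered in edgeR 4.0.16 (R 4.3.3) with its default filter (at least 10 counts, 15 in total), and libraries were scaled by TMM. The study's methods name edgeR's quasi-likelihood F-test; here all 12 kidneys entered a fit with 3 groups, tested two-sided with Benjamini-Hochberg adjustment and a threshold of 0.05. CPM values use TMM-scaled totals. Single genes were also compared by exact permutation tests of CPM. DESeq2 1.42.0 and limma 3.58.1 were alternatives, with other scalings, filters, a fit of the compared groups only, a replicate block and each kidney left out. The procedure was also run on simulated negative binomial counts with the same changes in both ischemia sets. The outcome of that run is not reported here, so it is no check of the calls above.

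Positions are from GENCODE M21 on GRCm38 (mm10), which pairs with the RefSeq promoters of GRCm38.p6. A promoter was found for 9 members and none was used for Ccnd1. Levels per kilobase divide CPM by exonic length. Genes at 3 counts or fewer in all controls were taken as at the floor, and folds against them are lower bounds. Deviations of kidneys of the same number in different groups correlated at -0.0554 to 0.0452, and those of different numbers at -0.0619 to 0.0763. This gave no sign of pairing by number, but it cannot show whether kidneys came from the same mouse. Replicates differed by more than sampling noise (smallest chi-square over its degrees of freedom 48.9). Named beside the members are, per list, up to 3 genes higher and 3 lower past the threshold in both ischemia sets, and the 5 genes nearest to Cdkn1a and to Ccnd1. Other listed genes in the text, such as Bax, Steap3 or Cdkn1b, were named after their values were seen. The members and lists were chosen with earlier results of these data known. Python 3.11.15, pandas 2.3.3 and SciPy 1.17.1 were used for the rest.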

Additional observations from a re-analysis of the deposited data

Results flagged for a closer look

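Gadd45b in set B replicate 3 stood apart from the other kidneys of its set, at 0.242 CPM beside 0 in the other 3, so that its gap to the nearest kidney was the whole range of the set, past the 95% limit of Dixon's test for 4 kidneys. The value rests on 5 counts. With the other 3 kidneys at 0, any count above 0 would have passed that limit, so passing it adds nothing to the count itself. In all, 30 groups of 4 kidneys were examined in this way, and among values without such ties chance sets about 1 in 20 groups apart. No explanation of this value was tested.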

How the results depend on the processing

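The values of the 9 tested members were recomputed under 19 alternatives, of which 12 left out a kidney and 7 changed the tool, scaling, filter, samples or block. Cdkn1a could not be tested in the fits of set A or set B with the controls alone, which kept too few kidneys with counts. Of 682 values, 650 kept their direction and their side of the threshold. Gadd45a and Btg2 kept theirs in all 76 recomputations each. The number of members called was 2 to 3 in each comparison with control when any single kidney was left out, and 0 in set B against set A. No sign of pairing by replicate number was seen. With the replicate block, 2 members were called in set A, 3 in set B, 0 between the sets and 2 for both sets together, where Cdkn1a had an adjusted p of 0.0715. Of all 11664 genes tested, 2491, 2531, 1 and 2974 were called with that block, in the same order. The direction turned in values that were never called. For Mdm2 the range with a kidney left out was -0.16 to 0.33 in set B and -0.02 to 0.47 for both sets, both below 0 without control replicate 3. For Ccng1 in set B against set A it was 0.15, 0.02 and 0.13 without set A replicate 2, set B replicate 2 and set B replicate 4, in a range of -0.11 to 0.15. For Phlda3 between the sets it was -0.13 with the replicate block, -0.15 without set A replicate 4 and -0.34 without set B replicate 2, in a range of -0.34 to 0.46.

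Leaving out a kidney gave 4 to 6 calls for the other p53 targets, 0 for the p53 family and regulators, 6 to 8 for the G1 list, 5 to 8 for the S, G2 and M phase genes, 3 to 4 for the family relatives and 3 to 4 for the ATF4 and CHOP genes. In DESeq2 the last list had 5 calls against 3, the S, G2 and M phase genes 9 against 6 and the G1 list 10 against 8. The cause was not tested. Cdkn1a, Gdf15, Phlda3 and Gadd45b rest on few counts, between 0 and 136 in the control kidneys, and for Phlda3 the controls with 0 and with 136 counts included libraries of 39155807 and 38977644 counts in total.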

Other observations

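The 5 tested genes whose log2 CPM, set against the control mean, lay nearest to that of Cdkn1a over the 12 kidneys were Pinx1, Tmem79, Pkp1, Mir744 and Ddx55, with root mean square differences of 0.97, 1.16, 1.35, 1.42 and 1.48 on the log2 scale, where Cdkn1a itself moved by 3.25. Pinx1 and Tmem79 also had a mean of 0 CPM in the controls, so that the likeness includes that shared floor. Those nearest to Ccnd1 were Snf8, Mogs, Tmem183a, Dap3 and Jagn1, at 0.248, 0.282, 0.294, 0.296 and 0.298, beside 0.476 for Ccnd1 itself. These are descriptions of 12 kidneys that share 3 groups, with no test.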
